A study of Homo sapiens with 4 samples.

Results

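The genes described here conjugate ubiquitin to proteins, choose the proteins to be tagged, or remove the tag. They were taken by symbol, from 12 families whose names start with UBE2, UBE3, UBE4, CUL, FBXO, FBXL, FBXW, KLHL, RNF, TRIM, USP or OTUD, with a digit required after CUL, RNF, TRIM and USP. In the authors' 4 deposited tables, 116 such genes had at least 1 listed feature, of 6926 genes listed in all. Where the authors merged several genes into 1 locus, an exon or intron was counted for the first member gene named. Such a feature may belong to another gene of the locus. The tables came from HepG2 cells, a human hepatoma line, given either an siRNA against METTL3, the catalytic subunit of the enzyme that writes N6-methyladenosine on messenger RNA, or a scrambled siRNA. The series text calls the controls mock-transfected, while the treatment notes give the scrambled siRNA. Both groups were transfected 3 times over a week, the later rounds 48 and 96 hours after the first, and were collected on day 7. Each group had 2 libraries of poly(A) RNA, described as biological replicates. How the cultures were kept apart is not stated, so p-values measure the spread between these samples only.

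Ubiquitin is activated by an E1 enzyme, passed to an E2 conjugating enzyme (the UBE2 family) and attached to a substrate with the help of an E3 ligase. Ligases of the HECT type (UBE3) carry the ubiquitin themselves, whereas most RING (RNF, TRIM) and U-box (UBE4) ligases bring the E2 to the substrate. The RING-between-RING ligases among the RNF genes are an exception. Cullins are scaffolds of modular RING ligases whose substrates are picked by adaptors, the F-box proteins (FBXO, FBXL, FBXW) and the BTB-kelch proteins (KLHL). Deubiquitinases such as USP and OTUD enzymes cut the tag off again. Liver cells use the system to clear misfolded secretory proteins from the endoplasmic reticulum, among many other tasks.

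METTL3 itself was lower in the knockdown, at the authors' mean of 241 normalized counts against 955 in the control. Its locus, merged with RAB2B and TOX4, had 8 listed exons, and all 8 were lower in both knockdown libraries than in both control libraries. The highest of them, exon 40, had 244 and 287 normalized counts with the scrambled siRNA, against 73.8 and 60.3 with the METTL3 siRNA. Every row of the 4 tables has an adjusted p under 0.05 and at least a 2-fold change as the authors computed it. A gene missing from a table was thus either not called or not tested, and has no value here. "Rose" and "fell" below mean listed by the authors as higher or lower in the knockdown. Of 12 hepatocyte and hepatoma markers none was in the gene table, so the labelled cell type could not be checked further. Of the fibroblast markers 3 of 6 fell in the gene table, among them LUM from 8006 to 1627 normalized counts. Of the blood and endothelial markers 2 of 8 rose in the gene table, CDH5 from 161 to 1143 and CD14 from 4.65 to 24.8, while an isoform of CD68, of the same list, fell from 2.45 to 1.11 FPKM. SYP rose among 4 neural markers, from 27.0 to 69.2. Their part in the results below was not tested.

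At the level of whole genes, 31 members were listed, 9 higher and 22 lower. Higher calls thus made up 29.03% of the members' calls and lower calls 71.0%, beside 41.3% and 58.7% of all 1977 listed genes. The members' median log2 fold change was -1.13 and that of all listed genes -1.10, both from the authors' deposited table. With the latter subtracted from every gene, 9 members higher and 1 lower were still past 2-fold. All higher calls were past 2-fold already, and subtracting a negative value raises them, so only the lower count could change. All listed members fall into the adaptor, RING, TRIM and deubiquitinase families. No gene of the UBE2, UBE3, UBE4, CUL or FBXL families was listed. Of 402 protein-coding genes with such names in the GENCODE 29 annotation, 29 were in the gene table, or 7.21%, beside 8.57% of all 19951 protein-coding genes. By family this was 0 of 37 UBE2 genes, 1 of 79 USP genes, 5 of 78 TRIM genes and 3 of 36 FBXO genes. It was 4 of 37 KLHL genes and 12 of 85 RNF genes. The highest shares were in small families, with 2 of 10 FBXW genes and 2 of 8 OTUD genes. How many of them the authors tested is not known, so these shares describe the list alone.

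**Figure D1:**
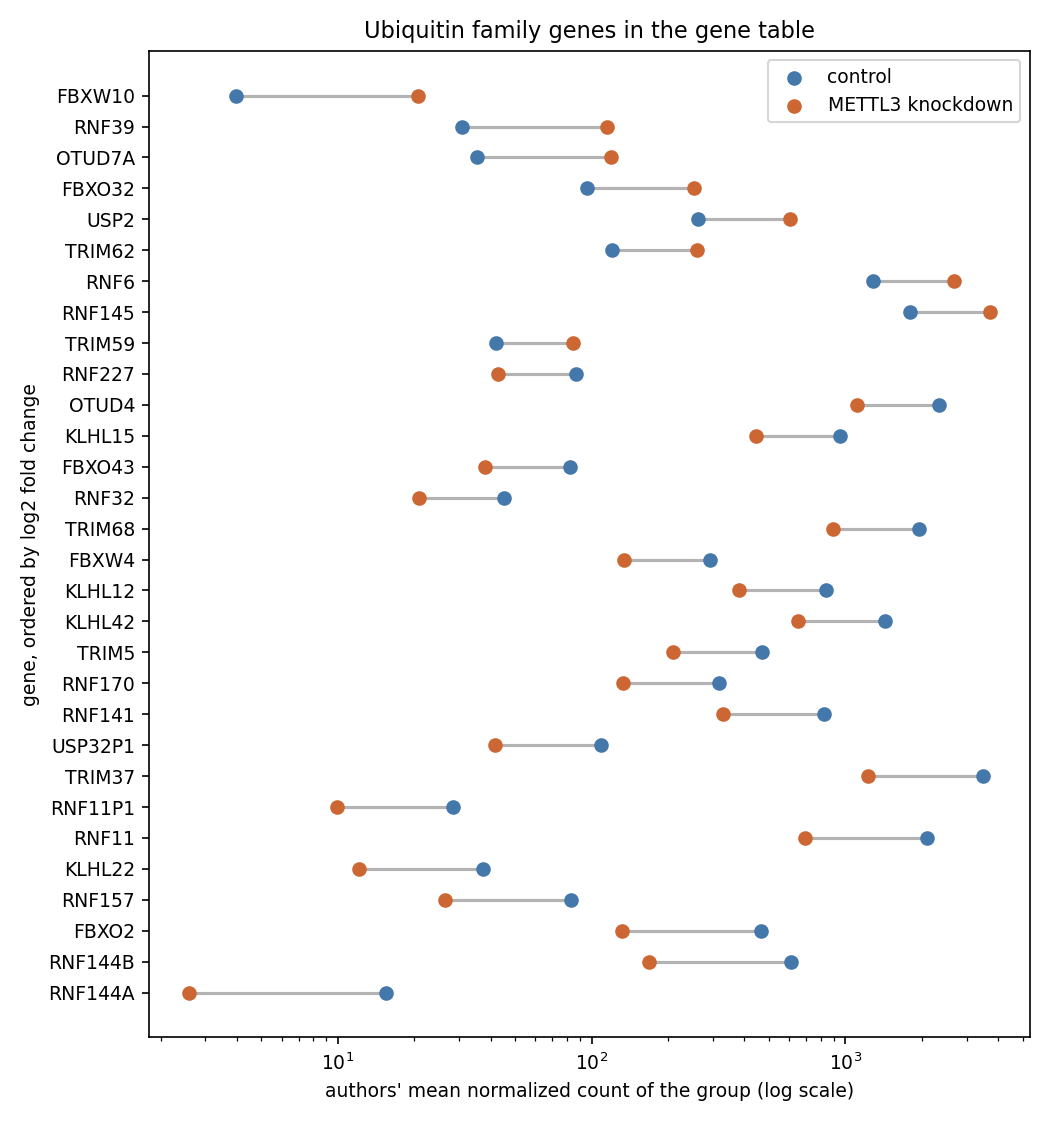
The authors' mean normalized count (x axis, log scale) of 30 listed ubiquitin family genes in the control and METTL3 knockdown groups, ordered by log2 fold change; each group is the mean of 2 libraries and no error could be drawn. The 9 genes at the top were higher in the knockdown, from FBXW10 to TRIM59, and the 21 below were lower, with RNF144A and RNF144B at the bottom.

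Among the F-box adaptors, FBXO32 rose and FBXO2 fell. FBXO32, known as atrogin-1 and as a marker of muscle wasting, went from 95.7 to 254 normalized counts, a log2 fold change of 1.41 in the authors' deposited table (adjusted p = 4.20e-10). FBXO2, which recognises sugar chains on misfolded glycoproteins, went from 464 to 132, a log2 fold change of -1.82 in the authors' deposited table (adjusted p = 2.08e-28). FBXO43, an inhibitor of the anaphase promoting complex, fell from 82.1 to 38.2 on the authors' means. Of the 2 listed FBXW genes, FBXW4 fell from 293 to 134 and FBXW10 rose from 3.97 to 20.7. FBXW10 thus rose 5.22-fold from a control level of only a few counts.

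The 4 listed BTB-kelch genes all fell, where 58.7% of all listed genes were lower. KLHL42 went from 1426 to 649 normalized counts, KLHL15 from 949 to 444 and KLHL12 from 836 to 381. These 3 abundant genes fell by a similar factor, between 2.13-fold and 2.20-fold. KLHL12 acts with CUL3 in the formation of large COPII transport vesicles, and KLHL15 targets a regulatory subunit of protein phosphatase 2A. KLHL22 was much lower in level and fell 3.09-fold, from 37.4 to 12.1.

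RING genes gave 13 of the 31 listed genes, with 3 higher and 10 lower, where 58.7% of all listed genes were lower. The steepest falls were in a pair of related RING-between-RING ligases. RNF144B went from 611 to 169 normalized counts, a log2 fold change of -1.86 in the authors' deposited table (adjusted p = 1.23e-34). RNF144A went from 15.5 to 2.60, a log2 fold change of -2.57 in the authors' deposited table, at a low level (adjusted p = 0.0192). RNF11, a small RING protein that works with HECT ligases of the NEDD4 family, fell 3.003-fold from 2088 to 695. Its pseudogene RNF11P1 was listed too, at 28.4 and 9.89, but reads of RNF11 can map to this near-identical copy, so its value is uncertain.

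Several other RING genes fell by 2.03-fold to 3.13-fold. RNF141 went from 826 to 328 normalized counts. RNF170, a ligase of the endoplasmic reticulum that acts on inositol trisphosphate receptors, went from 318 to 133. RNF157 went from 82.5 to 26.3, RNF227 from 87.0 to 42.7 and RNF32 from 45.3 to 20.8. The 3 RING genes that rose were RNF145, RNF6 and RNF39. RNF145, a sterol-responsive ligase of the endoplasmic reticulum, had the highest level of all listed members in the knockdown, 3702 against 1792. RNF6 rose from 1278 to 2683, and RNF39 rose 3.74-fold from a low level of 30.8 to 115.

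TRIM37, a ligase of peroxisomes and centrosomes, had the highest control level of all listed members and the smallest adjusted p. It fell from 3485 to 1227 normalized counts, a log2 fold change of -1.51 in the authors' deposited table (adjusted p = 2.88e-95). TRIM68 fell from 1953 to 896 and TRIM5, a restriction factor against retroviruses, from 468 to 210. TRIM62 rose from 120 to 261, and TRIM59 rose from 41.9 to 84.7, just past the 2-fold minimum. Among the deubiquitinases, USP2, a gene of the circadian system, rose from 262 to 605. OTUD4 fell from 2343 to 1115 while OTUD7A, of the same family, rose from 35.3 to 119. USP32P1 fell from 109 to 41.5, and as a partial copy of USP32 its reads may not all be its own.

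In the isoform table, 123 isoforms of 81 member genes were listed, 62 higher and 61 lower. This is 50.4% higher and 49.6% lower, beside 46.7% and 53.3% of all 7251 listed isoforms. The median log2 fold change was -1.02 among the members' isoforms with both groups above 0 and -1.10 over all such isoforms, although no listed value lies between -1 and 1. With the latter subtracted, 62 higher and 14 lower were still past 2-fold, and again only the lower count could change. A group was listed at 0 FPKM for 7 of the 123 isoforms, or 5.69%, against 18.1% of all listed isoforms. For 61 of the 81 genes the gene table held no entry. Levels below are the authors' FPKM per group, which are scaled for transcript length and come with no replicate value.

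**Figure D2:**
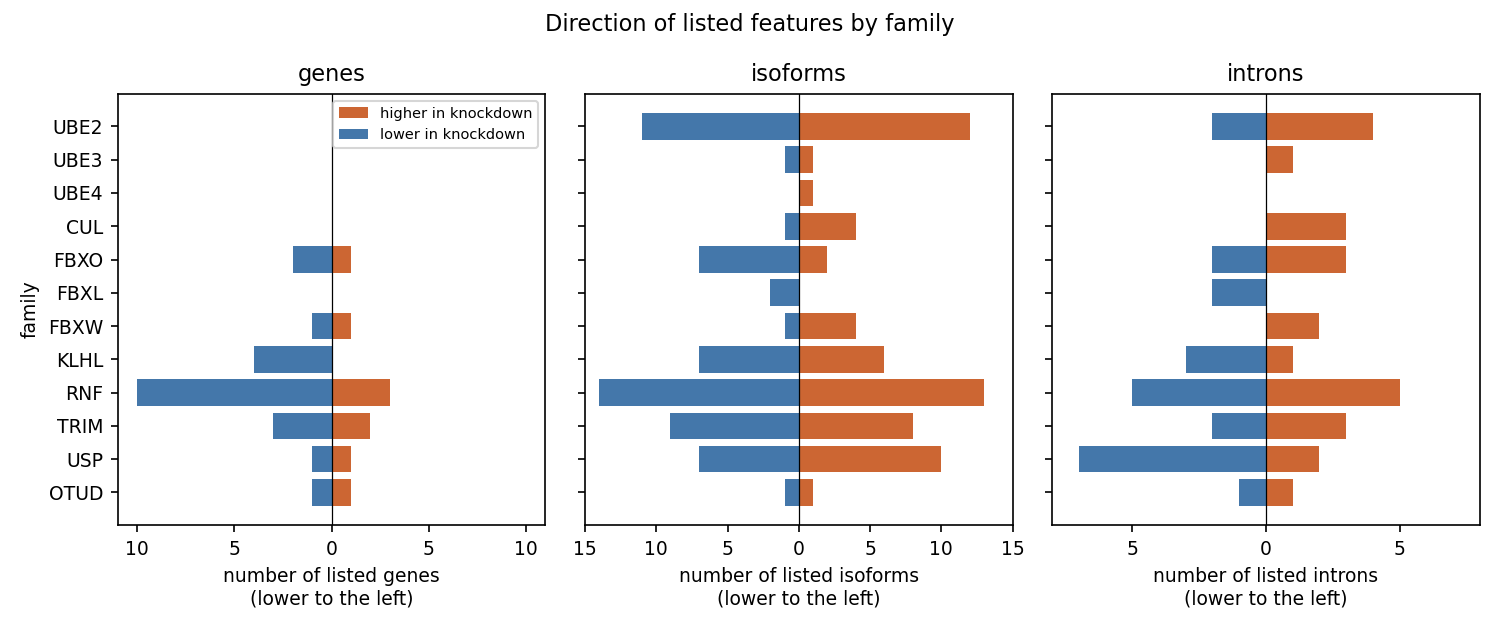
Number of listed genes (left), isoforms (middle) and introns (right) in each of the 12 families, with features lower in the knockdown drawn to the left of 0 and higher ones to the right. The gene panel leans to the left, 22 against 9, and has no bar for UBE2, UBE3, UBE4, CUL or FBXL, while isoforms stand at 61 lower and 62 higher and introns at 24 and 25. Over everything listed, 58.7% of genes, 53.3% of isoforms and 71.7% of introns were lower.

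The E2 enzymes had listed isoforms but no listed gene. In all, 23 isoforms of 11 UBE2 genes were listed, 12 higher and 11 lower, where 46.7% of all listed isoforms were higher. UBE2D3, a widely used E2 that works with many RING ligases, had 2 lower isoforms, ENST00000357194 from 13.4 to 2.26 FPKM and ENST00000394798 from 1.0004 to a listed 0. UBE2C, the E2 of the anaphase promoting complex, fell from 2.02 to 0.691 FPKM, and UBE2H from 3.10 to 1.46. Higher isoforms belonged to UBE2E1, from 1.52 to 6.26 FPKM, to UBE2F, the E2 of the ubiquitin-like NEDD8, from 3.66 to 8.27, and to UBE2G2, an E2 of the endoplasmic reticulum, from 2.44 to 5.42. UBE2V1, a variant without catalytic activity that helps to build chains, had 2 isoforms higher.

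Of the 27 genes with several listed isoforms, 10 had isoforms in both directions, 10 had only higher and 7 only lower ones. The share in both directions, 37.0%, compares with 41.2% of the 1325 genes with several listed isoforms in the whole table, leaving out symbols with more than 50. Those described here were UBE2D2, UBE2E3, UBE2J2, UBE3B, USP19, USP39, RNF170, TRIM7 and TRIM14. In 8 of the 10 genes isoforms of each direction reached 1 FPKM in a group.

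**Figure D3:**
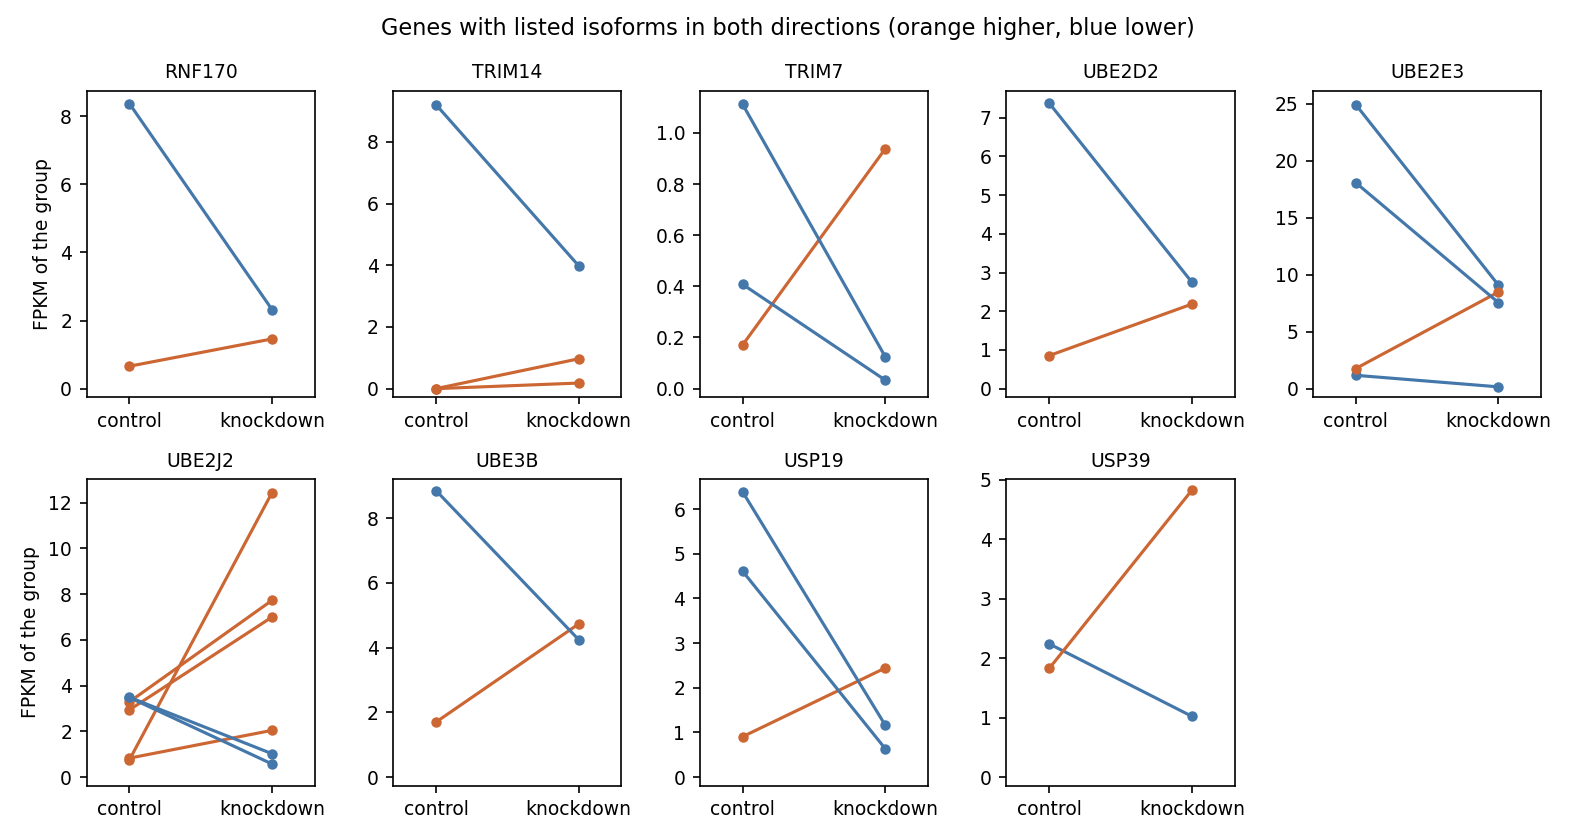
FPKM of each listed isoform in the control and knockdown groups (y axes differ between panels) for 9 genes with listed isoforms in both directions; orange lines rose, blue lines fell, and each point is 1 value per group without an error. The UBE2J2 panel shows 4 isoforms rising, the steepest from 0.757 to 12.4, and 2 falling; in UBE2E3 the higher isoform ended at 8.48, near the 9.10 and 7.56 of 2 lower ones.

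UBE2J2, an E2 anchored in the membrane of the endoplasmic reticulum, had the most listed isoforms, 4 higher and 2 lower. ENST00000339385 rose 16.4-fold, from 0.757 to 12.4 FPKM. The lower isoforms ENST00000349431 and ENST00000400929 went from 3.48 to 0.575 and from 3.49 to 1.02. ENST00000339385 was not matched in GENCODE 29. The 4 matched isoforms of this gene carry 2 coding forms, of 777 and 621 bases, and each form occurred once among the higher and once among the lower isoforms. For UBE2E3, ENST00000392415 fell from 24.9 to 9.10 and ENST00000410114 from 18.1 to 7.56 FPKM, while ENST00000410062 rose from 1.77 to 8.48. ENST00000392415 and ENST00000410062 have the same annotated coding part, and their first exons differ. UBE2D2, another widely used E2, had ENST00000398733 falling from 7.38 to 2.75 FPKM and ENST00000253815 rising from 0.852 to 2.18.

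For UBE3B and USP19 the annotated coding sequence differed between a higher and a lower isoform, and the sequences where they part are shown because they mark what the isoform calls distinguish. They are from GRCh38 with GENCODE 29, on the strand of the gene, matched by transcript ID, and not from the build of the authors' files. UBE3B, a HECT ligase, had a long isoform falling and a short one rising. ENST00000342494, with 28 exons and 3204 coding bases, went from 8.85 to 4.25 FPKM. ENST00000340074, with 9 exons and 732 coding bases, went from 1.70 to 4.73. The short model therefore had the higher FPKM of the pair in the knockdown and the lower in the control. After the same exon the short model ends its coding part at chr12:109490490-109490591, while the long model continues at chr12:109491045-109491127, both on the plus strand. The capitals mark these differing stretches, after the last 30 bases of the shared exon.
UBE3B ENST00000340074, higher: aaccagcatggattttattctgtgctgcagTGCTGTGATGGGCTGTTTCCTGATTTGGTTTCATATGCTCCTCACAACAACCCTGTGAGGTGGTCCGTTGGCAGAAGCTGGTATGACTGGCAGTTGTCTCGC
UBE3B ENST00000342494, lower: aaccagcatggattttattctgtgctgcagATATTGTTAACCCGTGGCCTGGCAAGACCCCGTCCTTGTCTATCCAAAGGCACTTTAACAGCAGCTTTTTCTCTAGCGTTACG
The HECT domain lies at the far end of such ligases, so the coding part of the short model stops before it.

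USP19, a deubiquitinase with forms anchored in the endoplasmic reticulum, had 2 isoforms falling and 1 rising. ENST00000398898 went from 6.39 to 1.17 FPKM and ENST00000398902 from 4.61 to 0.638. ENST00000398896 went from 0.905 to 2.44. The lower model ENST00000398898 has a coding exon of 300 bases at chr3:49117059-49117358, on the minus strand, that the higher model lacks. Capitals mark the start of that exon, and the second sequence shows the same place in the higher model, joined to the exon at chr3:49116727-49116943.
USP19 ENST00000398898, lower: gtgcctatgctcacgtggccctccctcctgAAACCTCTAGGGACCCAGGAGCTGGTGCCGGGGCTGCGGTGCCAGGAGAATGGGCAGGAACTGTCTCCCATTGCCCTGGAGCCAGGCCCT
USP19 ENST00000398896, higher: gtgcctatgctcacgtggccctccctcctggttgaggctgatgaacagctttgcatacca
The coding part of the higher model, 3538 bases, is not a whole number of codons, so its annotation is incomplete. The marked exon is not the only difference. The lower model has 26 exons and 3963 coding bases, the higher one 24 exons, and their first exons differ.

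The other genes with both directions were USP39, RNF170, TRIM14 and TRIM7. USP39, a member of the family that takes part in splicing, had ENST00000409901 rising from 1.83 to 4.82 FPKM and ENST00000409025 falling from 2.24 to 1.02. For RNF170, whose gene level fell, ENST00000240159 went from 8.37 to 2.32 while ENST00000319073 went from 0.658 to 1.46. Both RNF170 models have the same coding stretch of 348 bases, and the annotation classes the lower one as a target of nonsense-mediated decay. TRIM14 had its main listed isoform falling from 9.20 to 3.98 FPKM and 2 isoforms at a listed 0 in the control, which stayed under 1 FPKM in the knockdown. All TRIM7 isoforms were low, the highest at 1.11 FPKM.

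The cullins and their adaptors leaned both ways in the isoform table. CUL4A, the scaffold of ligases with DDB1, had 2 isoforms higher, ENST00000375441 from 12.9 to 39.4 FPKM and ENST00000375435 from 4.19 to 20.6. CUL2, the scaffold used by the VHL tumour suppressor, also had 2 higher, from 0.494 to 2.08 and from 0.711 to 2.85. CUL9 was the exception, with 1 low isoform falling from 0.470 to 0.211. FBXW7, the adaptor that brings cyclin E and MYC to destruction, had 3 isoforms higher: its main listed isoform ENST00000393956 rose 9.54-fold from 0.424 to 4.04 FPKM, and the others were at a listed 0 in the control. FBXO isoforms were lower in 7 of 9 cases, where 53.3% of all listed isoforms were lower. FBXO44 had 3 of these, among them ENST00000376760 from 1.42 to 0.0753 FPKM. FBXL5, an iron-sensing adaptor, fell from 1.72 to 0.424 FPKM. KLHL7 had 3 isoforms higher, led by ENST00000322275 from 4.41 to 14.4, and KLHL5 had 1 lower, from 27.8 to 13.8.

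RING isoforms split into 13 higher and 14 lower, where 53.3% of all listed isoforms were lower. RNF11 was the highest of them and fell from 37.8 to 11.9 FPKM, in the direction of its gene level. RNF14, a RING-between-RING ligase, had 3 isoforms lower, the highest falling from 3.91 to 1.11. RNF41, which targets the receptor ERBB3, fell from 2.64 to 0.723. Higher isoforms included RNF185, a ligase of the endoplasmic reticulum, from 4.50 to 10.2, RNF34 from 2.58 to 6.501 and RNF13 from 1.41 to 4.80. RNF6 rose 8.13-fold in ENST00000381570, but from only 0.226 to 1.84 FPKM.

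TRIM isoforms gave 8 higher and 9 lower, where 53.3% of all listed isoforms were lower. TRIM37 fell in ENST00000393065 from 33.3 to 9.66 FPKM and in ENST00000393066 from 3.21 to 0.243. The second of these models has 2892 coding bases against 2790. TRIM68 fell from 33.0 to 14.4, and TRIM33, a regulator of SMAD signalling, from 9.80 to 4.04. TRIM39 had 3 isoforms higher, the largest from 0.190 to 1.49, and TRIM28, a corepressor of zinc finger proteins, rose from 0.373 to 1.06 in 1 minor isoform. Of the deubiquitinase isoforms, 10 of 17 USP isoforms were higher, where 46.7% of all listed isoforms were higher. USP15 rose in ENST00000312635 from 10.7 to 24.6 and in ENST00000353364 from 7.02 to 14.5 FPKM. USP2 rose in both listed isoforms, from 4.83 to 12.1 and from 2.39 to 6.04, and USP11 rose from 1.64 to 5.01. USP8, which acts on endosomes, fell from 11.4 to 4.72 and USP37 from 3.63 to 1.21. UBE4B, a U-box ligase and the only listed UBE4 gene, had 1 isoform higher, from 0.117 to 0.331.

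Gene and isoform entries went the same way for nearly all genes that had both, though they come from the same 4 libraries and are not independent. Of 31 listed genes, 20 had listed isoforms under the same symbol, and for 19 of these all isoforms had the direction of the gene. RNF170 was the exception. The same share over all listed genes was not computed, so the count describes these genes alone. Another 5, which the 123 isoforms above do not include, were listed in the isoform table under an older name, among them RNF144B as IBRDC2, from 7.01 to 1.83 FPKM, and KLHL42 as KLHDC5, from 11.6 to 4.99, and all 5 were lower as in the gene table.

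In the intron table, 49 introns of 39 member genes were listed, 25 higher and 24 lower. This is 51.0% higher and 49.0% lower, beside 28.3% and 71.7% of all 2672 listed introns. The median log2 fold change was -1.08 among the members' introns and -1.37 over all listed introns. After subtraction of the latter, 25 higher and 2 lower were still past 2-fold, where only the lower count could change. Values are the authors' group means of normalized counts over an intron as the authors numbered it. An intron's count can come from unspliced RNA, from an exon annotated in some isoforms only or from another transcript, which the table does not tell apart. For 31 of the 39 genes the gene table held no entry.

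**Figure D4:**
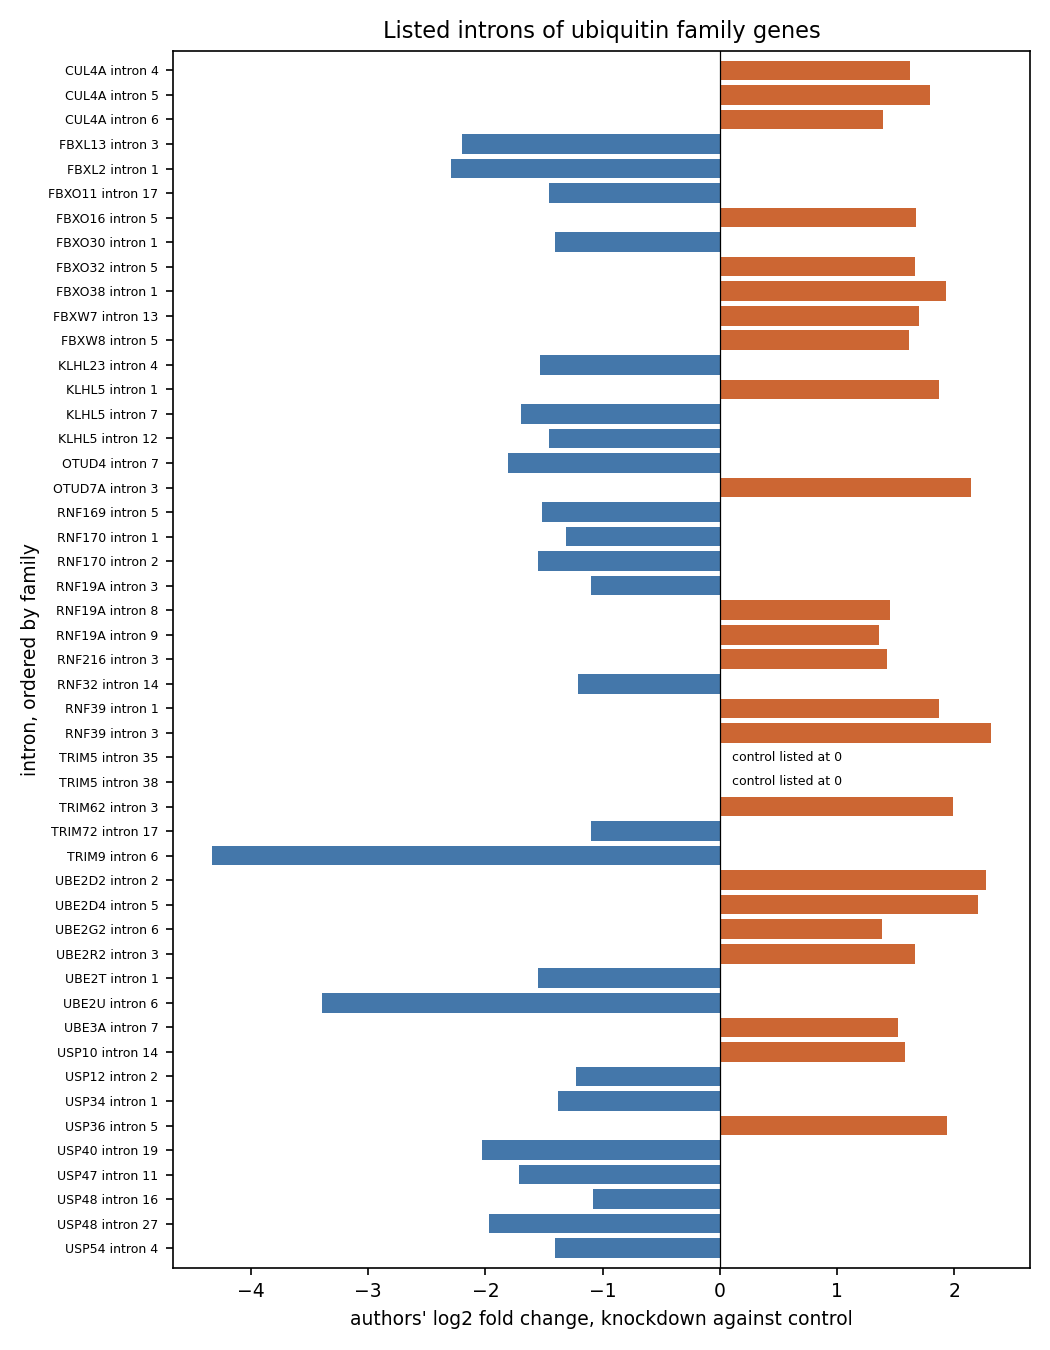
The authors' log2 fold change, knockdown against control, of the 49 listed introns of ubiquitin family genes, ordered by gene name, with higher introns in orange and lower in blue; the table gives no error. TRIM9 intron 6 and UBE2U intron 6 have the largest falls, -4.33 and -3.40, all 3 CUL4A introns are higher, and the 2 TRIM5 introns have no bar because the control was listed at 0.

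CUL4A had 3 neighbouring introns higher, alongside its 2 higher isoforms. Intron 4 went from 515 to 1583 normalized counts, intron 5 from 77.0 to 266 and intron 6 from 390 to 1022. RNF19A and KLHL5 also had 3 listed introns each, but in both directions. In RNF19A, a RING-between-RING ligase, intron 3 fell from 324 to 151 whereas introns 8 and 9 rose from 73.4 to 200.2 and from 534 to 1367. In KLHL5, intron 1 rose from 33.2 to 121 whereas introns 7 and 12 fell from 93.3 to 28.8 and from 969 to 353.

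Among the E2 enzymes, UBE2D2 intron 2 rose from 70.2 to 338 normalized counts, beside the isoforms in both directions described above. UBE2D4, UBE2G2 and UBE2R2 each had 1 higher intron, from 14.8 to 67.9, from 112 to 293 and from 25.9 to 82.2. UBE2T, the E2 of the Fanconi anaemia pathway, and UBE2U had 1 lower intron each, from 99.3 to 33.9 and from 34.5 to 3.28. In UBE3A, the ligase lost in Angelman syndrome, intron 7 rose from 55.2 to 159. F-box introns were higher in FBXO16, FBXO32, FBXO38, FBXW7 and FBXW8, by 3.07-fold to 3.81-fold. They were lower in FBXO11, FBXO30, FBXL2 and FBXL13, by 2.65-fold to 4.90-fold.

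Of the USP introns 7 of 9 were lower, near the 71.7% of all listed introns, and the OTUD family had 1 intron in each direction. USP40 intron 19 fell 4.08-fold, from 80.4 to 19.7, and USP48 had introns 16 and 27 lower, from 312 to 148 and from 53.3 to 13.6. USP10 intron 14 and USP36 intron 5 rose, from 38.3 to 114 and from 28.6 to 110. TRIM9, a ligase known from neurons, had the largest fall, in intron 6 from 33.4 to 1.66. TRIM5 introns 35 and 38, both listed at 0 in the control, each reached 24.8 in the knockdown. Since these values are identical, the same reads may stand behind both.

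The exon table is the only one with a value for each library, and it listed 6 exons of the member genes, 3 higher and 3 lower. Higher calls were 31.4% and lower calls 68.6% of all 474 listed exons. In a limma fit on log2(normalized count + 1), adjusted by the Benjamini-Hochberg method over the 474 exons, 96.2% of all listed exons passed a threshold of 0.05, 30.6% higher and 65.6% lower, and so did all 6 members. The exons had been listed from these same libraries, so this fit is no independent evidence. The authors' exon fold change need not be the ratio of the listed counts, and how it was derived was not given in the sources used here. SLC3A2 exon 11, for instance, was listed at mean counts of 486 in the control and 494 in the knockdown. The limma values below describe the level of the exon itself. The smallest p that an exact two-sided permutation test could give for 1 exon, with 2 libraries a side, is 0.333.

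**Figure D5:**
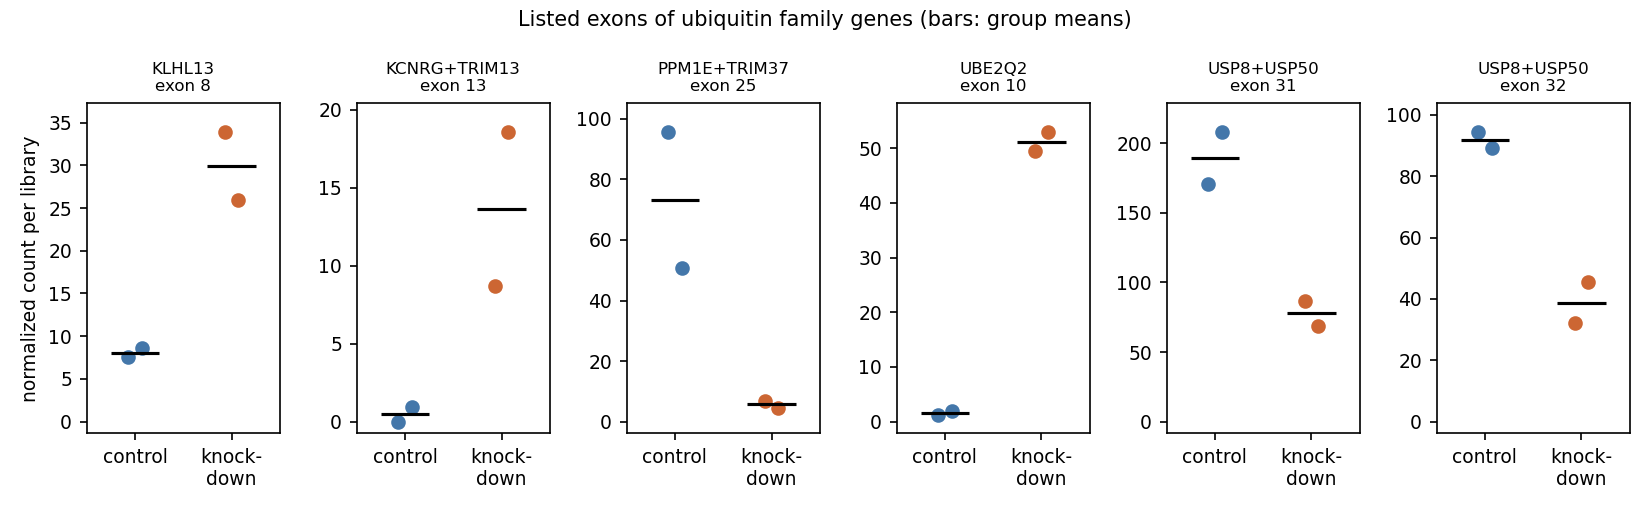
Normalized count of each of the 6 listed exons in every library (points, 2 per group) with the group mean as a bar; the y axes differ between panels. The groups do not overlap in any panel, but these exons were listed because the same libraries differed, and the share without overlap among all listed exons was not counted. PPM1E+TRIM37 exon 25 has the widest control spread, 95.6 and 50.8.

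UBE2Q2, an E2 with near-identical copies elsewhere in the genome, had the largest difference. Its exon 10 had 1.26 and 1.92 normalized counts with the scrambled siRNA, against 49.5 and 52.9 with the METTL3 siRNA. The groups were far apart and each was tight, with a log2 fold change of 4.35 ± 0.19 (SE, n = 2 per group, limma, adjusted p = 0.000351). The authors listed 5.08 for this exon (authors' deposited adjusted p = 4.31e-10). Because of the copies, the reads cannot be given to UBE2Q2 with certainty. KLHL13, an adaptor that acts in mitosis, had exon 8 at 7.54 and 8.62 in the control and at 33.9 and 26.0 in the knockdown. Both knockdown libraries were higher than both controls, by a log2 fold change of 1.76 ± 0.20 (SE, n = 2 per group, limma, adjusted p = 0.00182). The authors listed a log2 fold change of 2.42 for this exon (authors' deposited adjusted p = 0.0169). The 2 listed KLHL13 isoforms were also higher, from 0.419 to 0.912 and from 0.108 to 0.590 FPKM.

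The other 4 exons lie in loci where the authors merged neighbouring or overlapping genes, so an exon cannot be given to 1 gene from the table. Exon 25 of PPM1E+TRIM37 stood at 95.6 and 50.8 normalized counts in the control and at 6.95 and 4.64 in the knockdown. The controls differed from each other almost 2-fold, yet both were well above the knockdown libraries, with a log2 fold change of -3.40 ± 0.38 (SE, n = 2 per group, limma, adjusted p = 0.00176). The authors' deposited log2 fold change for this exon was smaller, -2.13, with their adjusted p near the threshold at 0.0486. The gene level of TRIM37 also fell, by a log2 fold change of -1.51. Without the second knockdown library the limma adjusted p was 0.0502. Exon 13 of KCNRG+TRIM13 was at 0 and 0.958 in the control and at 8.68 and 18.6 in the knockdown. The groups did not overlap but all values were low, and the log2 fold change was 3.30 ± 0.50 (SE, n = 2 per group, limma, adjusted p = 0.00361). Its size depended on the value added before the log, and was 1.72 with 5 added and 3.95 with 0.5 added. The authors listed 5.16 for this exon (authors' deposited adjusted p = 0.0206). Without the second knockdown library its limma adjusted p was 0.0635.

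USP8+USP50 had 2 neighbouring exons lower. Exon 31 stood at 171 and 208 normalized counts in the control and at 86.8 and 68.7 in the knockdown. Exon 32 stood at 94.3 and 89.1 in the control and at 32.1 and 45.5 in the knockdown. In both exons the lower control library was above the higher knockdown library. The authors listed -1.36 for exon 31 and -1.31 for exon 32 (authors' deposited adjusted p = 6.69e-06 and 0.0130). The limma log2 fold changes were -1.28 ± 0.21 for exon 31 (SE, n = 2 per group, limma, adjusted p = 0.00427) and -1.24 ± 0.22 for exon 32 (limma, adjusted p = 0.00573). Setting the median of all listed exons equal between libraries reduced them to -0.36 and -0.33, with limma adjusted p of 0.161 and 0.254. The list holds called exons only, 68.6% of them lower, so this step raises the log2 fold change of every exon. It therefore cannot stand for a correction of library size. The same step moved the log2 fold change to 5.26 for UBE2Q2, 2.67 for KLHL13, 4.21 for KCNRG+TRIM13 and -2.49 for PPM1E+TRIM37.

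Over all tables, with isoforms under older names included, 78 of the 116 genes appeared in 1 table, 31 in 2 and 7 in 3. The 7 were FBXO32, OTUD7A, RNF39 and TRIM62 with all entries higher, OTUD4 and TRIM37 with all entries lower, and RNF170 with both. Features of merged loci were counted for the member gene here, although they cannot be given to 1 gene. The exon entry of TRIM37 is of this kind, from PPM1E+TRIM37, and so are the exon entries of USP8, from USP8+USP50. OTUD4 fell in its gene level, in its isoform from 19.1 to 7.73 FPKM and in intron 7 from 328 to 93.4 normalized counts. OTUD7A rose in its isoform from 0.394 to 1.86 FPKM and in intron 3 from 17.9 to 79.1. FBXO32 rose in its isoform from 4.02 to 9.70 FPKM and in intron 5 from 52.1 to 165, and the annotation classes this isoform as one that retains an intron. Of the 38 genes in 2 or more tables, 12 had only higher entries, 20 only lower ones and 6 both. Those with both were KLHL5, RNF170, TRIM5, UBE2D2, USP34 and USP54. No such count was made over all listed genes, so these counts describe the members alone. Lower calls were 58.7% of all listed genes, 53.3% of isoforms, 71.7% of introns and 68.6% of exons. For TRIM5 the gene level fell while the listed introns rose, and for USP34 and USP54 a low isoform rose while an intron fell.

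The rest of the ubiquitin system was read from 8 lists that leave out the 12 families. The counts below stand beside the shares over everything: 8.57% of protein-coding genes were in the gene table, lower calls were 58.7% of listed genes, 53.3% of listed isoforms and 71.7% of listed introns, and no list was tested against them. None of the 6 genes for ubiquitin and its activation was in the gene table, and the 1 listed isoform was of UBB, a polyubiquitin gene, lower at 2.61 against 7.04 FPKM. None of the 52 genes of proteasome subunits, their regulators and the factors that deliver proteins to the proteasome, and none of the 16 genes of the anaphase promoting complex was in the gene table. Their isoforms were 3 higher and 9 lower for the proteasome list and 2 higher and 1 lower for the complex. The former include 2 isoforms of genes that are not proteasome subunits, UFD1 from 5.04 to 10.1 FPKM and UBQLN4 from 3.68 to 1.82. PSMA1, a subunit of the proteasome core, had 1 isoform higher, from 2.49 to 11.8 FPKM, and 1 lower, from 5.14 to 1.23. Introns of the proteasome list were lower in 8 of 9 cases, where 71.7% of all listed introns were lower.

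Among ligases outside the 12 families, the gene table held calls in both directions. Of 61 other RING genes, 4 rose and 3 fell. ZNRF3, which removes Wnt receptors, rose from 142 to 453 normalized counts, PELI1 from 162 to 449 and CBLB, a brake on receptor signalling, from 264 to 551, while MARCHF4, listed at 0 in the control, reached 19.7. BRCA1, a ligase of DNA repair, fell from 3388 to 1287, MARCHF5, of the mitochondrial outer membrane, from 1352 to 569 and PELI3 from 46.7 to 18.0. Of 29 other HECT and RING-between-RING genes, 3 fell and none rose, HERC3 from 581 to 220.3, HECW1 from 170.4 to 70.6 and HERC6 from 158 to 68.3. Of 49 cullin ligase core and adaptor genes 3 fell, KBTBD6 from 1363 to 466, DCAF16 from 1488 to 595 and CAND2 from 34.3 to 12.9, and DCAF13 rose from 1074 to 2154.

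Of 28 genes listed as other deubiquitinases 2 fell, BRCC3, which cuts chains at sites of DNA damage, from 1471 to 644 and PAN2 from 1279 to 639. PAN2 is related to the USP enzymes by sequence but is known as a nuclease that shortens poly(A) tails, so BRCC3 is the only deubiquitinase among them. Of 32 genes of ubiquitin-like modifiers and their enzymes 4 fell and none rose. They were DCUN1D4, which helps to attach NEDD8 to cullins, from 1588 to 675, SENP7, a SUMO protease, from 672 to 324, HERC5, the ligase of ISG15, from 375 to 127 and SENP8, a NEDD8 protease, from 51.2 to 17.3. Isoforms were 2 higher and 12 lower in this list and 4 higher and 10 lower among the other deubiquitinases, of which 2 lower ones were of PAN2. They were 16 higher and 19 lower among the RING genes, 5 and 10 among the HECT and RING-between-RING genes and 8 and 14 among the cullin genes.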

How the data were processed

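RNA from 2 METTL3 knockdown and 2 control cultures was sequenced. The build hg18 and the programs TopHat 1.2.0, Cufflinks, Cuffdiff 1.0.3, HTSeq, DESeq 1.5.24 and CASAVA 1.8 are named in the submitters' processing notes. Which of them made which table was not given in the sources used here. Per the file headers, the authors deposited a normalized signal (mean normalized counts per group) for genes and introns, and a normalized count per library for exons. They also deposited log2 fold changes and p-values for these tables, and a fold ratio for genes only. For isoforms the authors deposited 1 FPKM per group and a natural log fold change, converted here to log2. Library totals are unknown, because the deposited tables hold only called features, so the depth of each library cannot be given and low values are the least certain.

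Ensembl IDs were turned into symbols with the reference name table, which matched 1795 of 1977 gene IDs, 1833 of 2000 intron IDs and 419 of 471 exon IDs. Older symbols were matched through RefSeq synonyms. Of 123 member isoforms 92 were found in GENCODE 29, too few for a check of length or sequence over the set. Calls on genes, isoforms and introns are those of the authors. A limma fit (version 3.58.1, under R 4.3.3) tested exons on log2(value + 1), a scale that understates the change of low exons, with both groups in 1 fit and no covariate. Tested on simulated exons, 474 in all and 200 of them changed, this fit recovered 56% of exons changed 2-fold and 94% of those changed 4-fold, and called 1.09% of unchanged ones. The simulated exons shared 1 spread beside counting noise, while the listed exons vary in spread and were all listed as changed. These rates therefore do not carry over to the listed exons.

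Gene and exon entries of members could all be named. Isoforms were named by family, the 4 highest, the 4 largest changes reaching 1 FPKM and genes with both directions; introns likewise, 4 per family, and genes with 3 or more. Genes in 2 or more tables were named as well, and a few further isoforms and introns were chosen after their values were seen. The member genes, pathway lists and marker lists were chosen with earlier results of these data known. Alternatives were a stricter adjusted p, minimum levels, other pseudocounts, recentring, 1 feature per gene, leaving out each library, and a replicate block. Some members and sequences are not reported here.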

Additional observations from a re-analysis of the deposited data

How the results depend on the processing

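All directions of single exons held under every alternative run. Subtracting the median log2 fold change of all listed features (-1.10 for genes and isoforms, -1.37 for introns) and keeping those still past 2-fold left 9 genes higher and 1 lower, 62 isoforms higher and 14 lower and 25 introns higher and 2 lower; 3 genes, 4 isoforms and 6 introns that were lower changed sign. Since the tables hold called features only, that median is not the median of all genes. Every higher feature was past 2-fold already, so this step could only reduce the lower counts. Isoform counts moved with the level required, to 40 higher with a mean of at least 1 FPKM, to 13 higher and 20 lower with at least 5 FPKM, and to 28 higher and 33 lower with a pseudocount of 1 FPKM before the 2-fold minimum. With 1 isoform per gene 37 were higher. With 50 normalized counts required as the mean, 2 member exons could be tested and both passed. Of 50 exon alternatives 44 kept their side of the threshold and 6 lost it, those given above and exon 32 of USP8+USP50 without either control library (limma adjusted p of 0.0644 and 0.0574). With the replicate block all 6 exons still passed. Same-numbered libraries did not deviate together (r = 0.00121 over 474 exons), so the numbers were not taken as pairs.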
